A study of Mus musculus with 12 samples.

Results

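Osteoblasts exposed to SAHA for 6 h were compared with osteoblasts exposed to SAHA for 2 h, to describe what changes between the exposure times. The comparison uses 8 of the study's 12 arrays, the 4 labelled 6 h and the 4 labelled 2 h. It covers the 16431 of 45281 probes that had a detection p under 0.01 on 4 or more of the 12 arrays. Of these probes, 14136 carry 1 gene symbol, and together they stand for 9153 genes.

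The cells were MC3T3 sc4, a subclone of a mouse calvarial preosteoblast line, so all samples come from 1 clone. All groups were grown to confluence, switched to osteogenic medium with ascorbic acid and beta glycerol phosphate, and treated on day 4 of differentiation. The first group received 20 µM SAHA for 6 h, the second 20 µM SAHA for 2 h, and the third the solvent, DMSO, with 4 samples in each. Before harvest every sample spent 40 min in collagenase, with SAHA or DMSO still present. No allele or transgene is named for any group.

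SAHA (suberoylanilide hydroxamic acid, vorinostat) blocks the zinc-dependent histone deacetylases, the enzymes that take acetyl groups off histone tails and other proteins. Acetylated histones accumulate within hours of treatment, and many genes rise while others fall. Osteoblasts build bone matrix from type I collagen and mineralise it, under the transcription factors Runx2 and Sp7, and the sc4 line is widely used because it mineralises in culture.

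The time labels differ from the treatment description, which names only a 2 h exposure, and the exposure time of the DMSO samples is not given in the sources used here. There is no DMSO group for each time, so time in SAHA and time in fresh medium cannot be told apart. The arrays are numbered in the order of the groups (DMSO 1 to 4, 2 h 5 to 8, 6 h 9 to 12), and the chip of each array is not given in the sources used here, so array order and group cannot be told apart either. The labels do not state that replicate samples were independent cultures. The p-values therefore measure the spread between these samples only, which may be technical. In whole cultures, fewer cells of a type and less RNA per cell cannot be told apart.

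Between 15264 and 15705 probes were detected on the 6 h arrays and between 14904 and 15982 on the 2 h arrays. The lowest count belonged to 1 of the 2 h arrays. The SD of the difference between 2 arrays was 0.20 to 0.25 on the log2 scale within the 6 h group and 0.17 to 0.26 within the 2 h group, against 0.54 to 0.58 between a 6 h and a 2 h array. Markers of osteoblasts and of other cell types were checked. Of 9 osteoblast marker genes with probes, 7 were detected on all 6 h arrays and 9 on all 2 h arrays. None of 9 adipocyte markers with probes was detected on any SAHA array. Of 10 endothelial markers 9 were detected on no SAHA array. The exception was Egfl7, at 7.99 at 6 h and 6.08 at 2 h on the log2 scale. The summed linear intensity of the endothelial list was 555 to 615 at 6 h and 375 to 416 at 2 h. Of 10 macrophage and blood cell markers with probes, 5 (Ptprc, Adgre1, Tyrobp, Acp5 and Itgam) were detected on no SAHA array, and the summed level was 564 to 611 at 6 h and 670 to 693 at 2 h. The 4 that passed the detection filter were Lyz2, Cd14, Fcer1g and Csf1r. Their means were 7.57, 6.09, 6.19 and 5.32 at 6 h and 7.78, 7.04, 6.50 and 5.88 at 2 h. Of 10 chondrocyte markers 5 were detected on no SAHA array, among them Acan and Col10a1, and the sums were 3558 to 4045 at 6 h and 3694 to 4114 at 2 h. The 4 that passed the filter were Sox9, Col2a1, Comp and Snorc. Their means were 11.47, 9.33, 5.05 and 5.87 at 6 h and 11.38, 9.71, 6.01 and 6.25 at 2 h. Of 10 skeletal muscle markers 7 were detected on no SAHA array, among them Myod1 and Ckm, and the sums were 494 to 535 at 6 h and 477 to 523 at 2 h. The 3 that passed the filter were Des, Acta1 and Myog. Their means were 7.21, 6.50 and 5.77 at 6 h and 7.18, 5.86 and 5.87 at 2 h. The part of these markers in the results below was not tested.

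Most genes differed between 6 h and 2 h in the quantile-normalized values used here. At an adjusted p under 0.05 (limma, Benjamini-Hochberg over all 16431 probes), 9253 probes changed, 56.3% of those tested. Counted over genes, 5576 of 9153 changed, 60.9%. Of these, 3056 rose (33.4%) and 2520 fell (27.5%). With median scaling in place of quantile normalization, the same test gave 4112 changed genes of 9153, with 1483 rises and 2629 falls. That scaling put the median difference of all genes at -0.08 on the log2 scale, against 0.04 in the values used here. With no normalization between arrays the median was -0.20, and 3297 genes changed, with 671 rises and 2626 falls. Whether most genes changed, and how they split into rises and falls, thus depended on the scaling. So did counts of small rises in the gene lists. Of the genes named below as called, Adamts9, Arntl, Atf4, Atp6v0d1, Bad, Casp9, Ccn2, Col5a3, Csnk1e, Dlx6, Espl1, Fgfrl1, Fhl1, Hdac3, Kmt5c, Mcam, Mcoln1, Meis1, Ncam1, Pttg1, Reck, Rpl22, Rps25, Rps4x, Sirt1, Sox4, Tslp, Ttk, Tuba1b and Vcl did not pass with either of these settings. Below, a difference is 6 h minus 2 h on the log2 scale of the quantile-normalized values, with its standard error after ±, and levels are log2 intensities. Counts in gene lists stand beside the shares over all genes, 33.4% that rose and 27.5% that fell.

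Among genes that passed and moved at least 2-fold, 250 were higher at 6 h (2.73%) and 389 lower (4.25%). These 639 genes became 332 with no background correction and 320 in the authors' normalized values. Some genes were detected in 1 of the groups alone, and for those the fold is a minimum, printed as "at least". With such genes at their minimum 211 rose and 347 fell by at least 2-fold. The 6 h and 2 h arrays did not overlap for 5074 genes, 55.4%. Detection also switched: 83 genes were detected on 4 of 4 arrays at 6 h and on none at 2 h, and 67 of these were detected on no DMSO array. Only 7 of the 83 were detected on every DMSO array and would have passed the detection filter without the 6 h arrays. The others, including those 67, needed the 6 h arrays to pass, so higher values at 6 h were built into their inclusion. In the other direction, 65 genes were detected on every 2 h array and on none at 6 h, and 59 of these were detected on every DMSO array. A further 27 genes passed the test while undetected on all 8 SAHA arrays (7 rose and 20 fell), and such values lie below what the arrays detect.

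**Figure D1:**
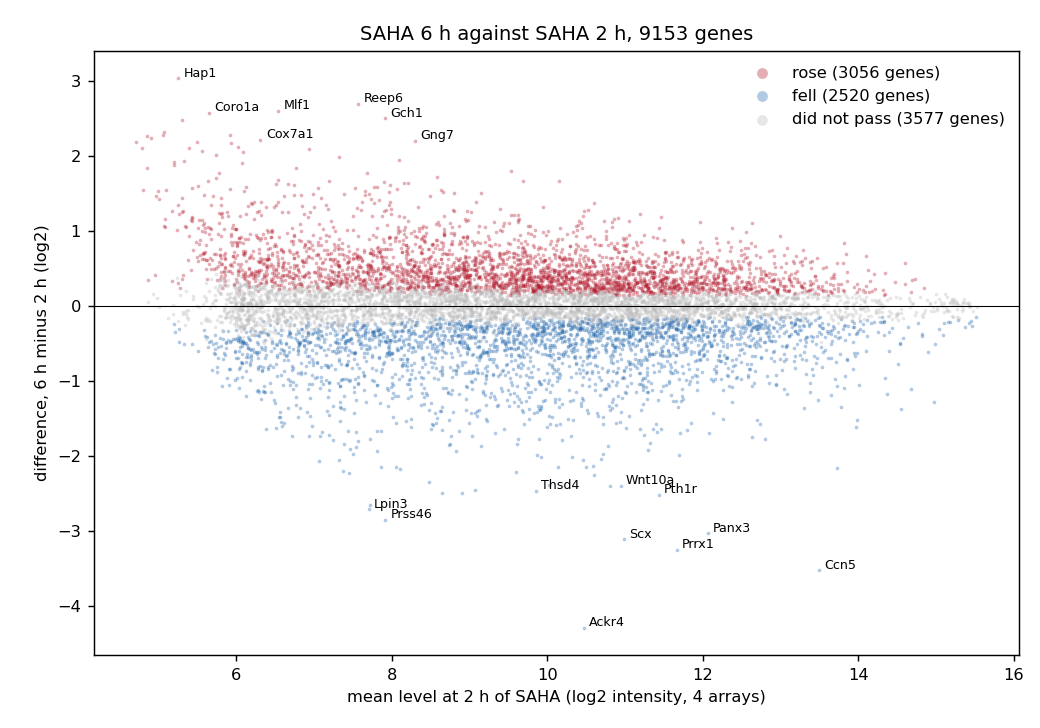
Each point is 1 of 9153 genes, with its mean log2 intensity over the 4 arrays at 2 h on the horizontal axis and its difference, 6 h minus 2 h, on the log2 scale on the vertical axis. Red points rose (3056), blue points fell (2520) and grey points did not pass the test (3577). The labelled falls had 2 h means from 7.71 (Lpin3) to 13.49 (Ccn5), and the labelled rises from 5.25 (Hap1) to 8.29 (Gng7).

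The 15 largest falls included genes of the osteoblast surface, the matrix and skeletal patterning. Ackr4, which encodes a chemokine-scavenging receptor, was at 6.19, 6.26, 6.12 and 6.16 on the log2 scale at 6 h, against 10.53, 10.40, 10.38 and 10.57 at 2 h. This was the largest difference of the comparison at -4.29 ± 0.07, 19.5-fold lower at 6 h (adjusted p = 1.76e-13), and 1 of the 4 arrays at 6 h did not detect the gene. Its DMSO mean was 11.31. Other probes for Ackr4 gave differences from -3.57 to 1.08, so the probes disagree. When the gene's probe was chosen among those detected on all 12 arrays, or from the SAHA arrays alone, the difference was 1.08.

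Ccn5, a secreted matricellular protein of the CCN family, was at 10.03, 9.98, 9.90 and 9.97 at 6 h, against 13.60, 13.49, 13.50 and 13.38 at 2 h. It fell 11.5-fold (difference -3.52 ± 0.06, adjusted p = 4.23e-13), and its DMSO mean of 14.07 was above both. Prrx1, a homeobox factor of limb and craniofacial mesenchyme, was at 8.34, 8.33, 8.52 and 8.44 at 6 h, against 11.69, 11.66, 11.69 and 11.61 at 2 h. That is 9.53-fold lower, and the gene's other probes gave -3.27 to -1.67. Scx, the tendon and ligament bHLH factor scleraxis, was at 7.71, 7.97, 8.04 and 7.79 at 6 h, against 11.02, 11.05, 10.97 and 10.90 at 2 h, 8.62-fold lower. Panx3, a channel protein of osteoblasts and chondrocytes, was at 9.13, 8.91, 8.99 and 9.10 at 6 h, against 12.21, 12.01, 12.03 and 12.004 at 2 h, 8.16-fold lower. In each of these genes every 6 h array lay below every 2 h array, by more than 2 log2 units.

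Pth1r, the receptor through which parathyroid hormone acts on osteoblasts, was at 8.88, 8.80, 9.15 and 8.86 at 6 h, against 11.42, 11.43, 11.57 and 11.30 at 2 h. It fell 5.70-fold, and its other probes gave -2.72. Gper1, a membrane receptor for oestrogen, was at 6.19, 6.08, 6.14 and 6.19 at 6 h and 8.64, 8.71, 8.74 and 8.48 at 2 h, and fell 5.63-fold, with 3 of 4 arrays at 6 h detecting it. Wnt10a, a Wnt ligand, was at 8.37, 8.77, 8.71 and 8.33 at 6 h and 10.90, 10.98, 10.98 and 10.92 at 2 h, 5.27-fold lower. Sema3a, a secreted guidance protein that osteoblasts make, was at 8.50, 8.54, 8.36 and 8.26 at 6 h and 10.91, 10.77, 10.93 and 10.62 at 2 h, 5.24-fold lower. Among these 4 genes the 6 h mean lay farthest below the DMSO mean in Gper1, whose DMSO mean was 10.04.

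The calcium-activated potassium channel gene Kcnn4 fell by 2.49, Thsd4, a thrombospondin-domain matrix protein gene, fell by 2.46, and Prr33 fell by 2.45 on the log2 scale. The 2 h mean of Kcnn4, 8.90, was above its DMSO mean of 8.70. The other 3 genes of the 15 were detected on all 2 h arrays and on no 6 h array. Prss46, a serine protease gene, was at least 3.52-fold lower at 6 h. The triglyceride synthesis gene Lpin3 was at least 3.04-fold lower, and Ptprv, a receptor tyrosine phosphatase of osteoblasts, at least 3.09-fold lower.

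The 15 largest rises included many genes that were below detection at 2 h. Hap1, which encodes a huntingtin-associated trafficking protein of neurons, was at 8.16, 8.41, 8.30 and 8.30 at 6 h, against 5.12, 5.49, 4.98 and 5.43 at 2 h. It was detected on every 6 h array and on no 2 h or DMSO array, and was at least 4.64-fold higher. Hap1 passed the detection filter only through the 6 h arrays, as did Mgarp, Tmem145, Lama5, Extl1, Igsf9, Smtnl2 and Fgd2. Coro1a, detected on 2 DMSO arrays, and Rtn2, detected on 1 array at 2 h, also needed the 6 h arrays to pass. Higher values at 6 h were thus built into the inclusion of these genes. Coro1a, an actin-binding coronin best known from blood cells, was at 8.18, 8.24, 8.36 and 8.14 at 6 h, against 5.67, 5.70, 5.53 and 5.72 at 2 h, where no array detected it. It was at least 4.45-fold higher, and its other probe rose by 2.22. Mgarp, a mitochondrial protein gene, was at least 3.29-fold higher, and Tmem145 at least 3.05-fold. The bounds were 2.49-fold for Lama5, a laminin chain of basement membranes, and 2.41-fold for Extl1, of the exostosin family of heparan sulfate genes. They were 2.10-fold for Igsf9 (a difference of 0.048 and no call, adjusted p = 0.885, with no filter on detection), 2.07-fold for Smtnl2 and 1.78-fold for Fgd2, an exchange factor for Cdc42.

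Other large rises, all but that of Rtn2, began from a level detected on every 2 h array. Reep6, an endoplasmic reticulum membrane protein gene, was at 10.28, 10.21, 10.33 and 10.23 at 6 h, against 7.46, 7.47, 7.54 and 7.80 at 2 h, and rose 6.48-fold. Its DMSO mean was lower still, 6.22. Gch1 (GTP cyclohydrolase, which starts tetrahydrobiopterin synthesis) was at 10.35, 10.56, 10.46 and 10.31 at 6 h, against 7.95, 8.05, 7.72 and 7.94 at 2 h, a 5.68-fold rise above a DMSO mean of 5.16. Mlf1 was at 9.17, 9.23, 9.14 and 9.06 at 6 h and 6.53, 6.65, 6.43 and 6.54 at 2 h, 6.11-fold higher. Gng7, a G protein gamma subunit gene, was at 10.58, 10.48, 10.56 and 10.39 at 6 h and 8.29, 8.25, 8.35 and 8.29 at 2 h, 4.62-fold higher, and its 2 h mean was equal to its DMSO mean of 8.29 to 2 decimals. Cox7a1, a heart and muscle form of a cytochrome oxidase subunit, rose 4.65-fold. Rtn2, a reticulon of the endoplasmic reticulum, was at 8.19, 7.73, 8.39 and 8.16 at 6 h and 6.14, 5.87, 5.92 and 5.82 at 2 h. Only 1 of 4 arrays at 2 h detected it, so no fold is given.

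**Figure D2:**
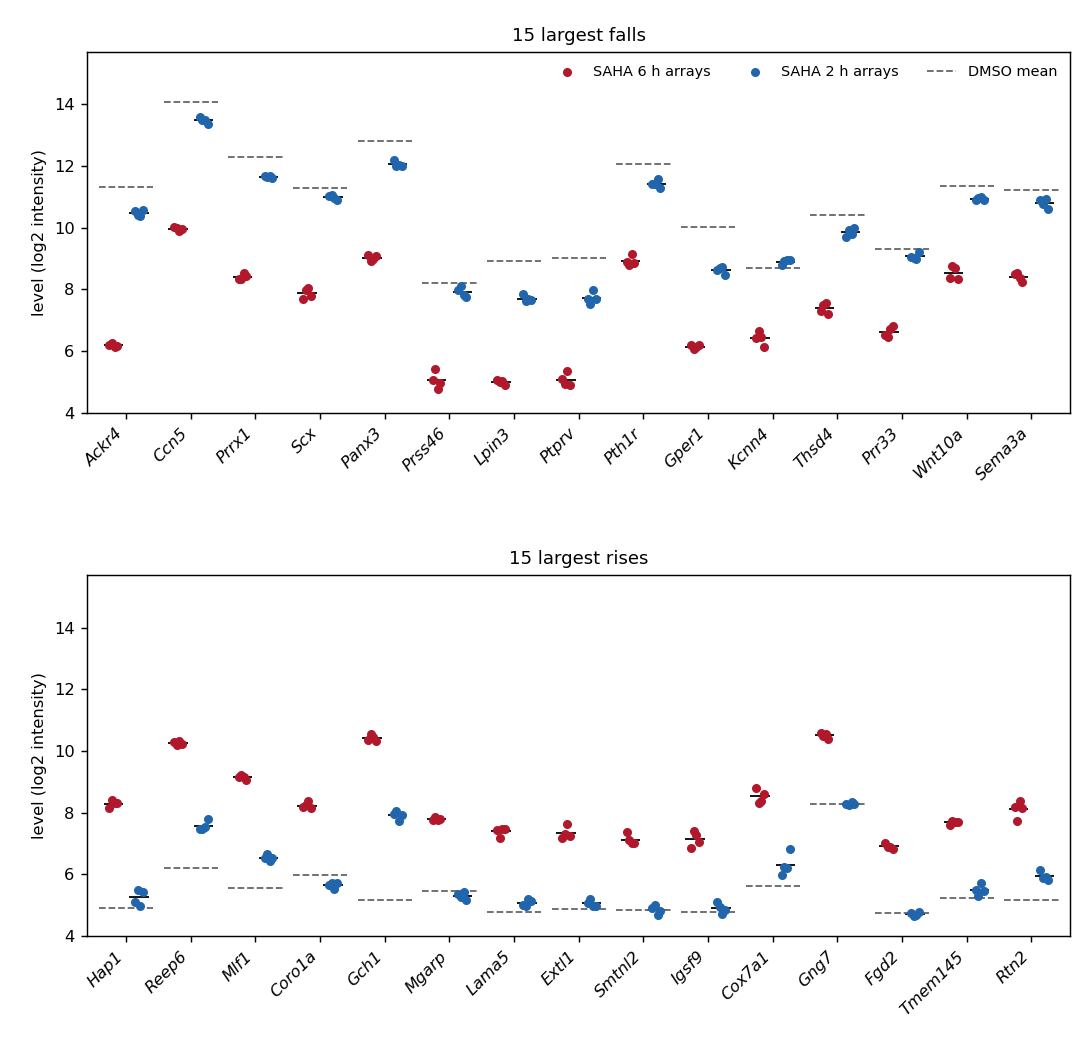
Log2 intensity of the 15 genes with the largest falls (top) and rises (bottom) on each SAHA array, with 6 h arrays in red to the left of 2 h arrays in blue. Short black bars are group means over 4 arrays and the dashed grey line is the DMSO mean. The red and blue points of a gene do not overlap in any of the 30 genes.

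Some genes that changed between 2 h and 6 h had a 6 h mean within 0.25 log2 units of the DMSO mean. The largest was Chac1, a glutathione-degrading enzyme gene induced by amino acid and endoplasmic reticulum stress. It was at 11.99, 11.96, 11.71 and 11.64 at 6 h and 9.99, 10.26, 10.05 and 10.29 at 2 h, beside a DMSO mean of 11.99. Kbtbd7 (1.33 ± 0.10) and Aasdh (1.20 ± 0.09) were likewise higher at 6 h than at 2 h, and Zfp866, undetected at 2 h, was at least 1.56-fold higher. In the other direction, Socs3, an inhibitor of cytokine signalling, was at 9.93, 10.04, 10.01 and 10.02 at 6 h, against 11.23, 11.19, 11.15 and 11.01 at 2 h and a DMSO mean of 9.93. Arid5b, a chromatin-binding factor gene, fell by 1.08 to 6.44, beside a DMSO mean of 6.42. These 6 genes were chosen for that pattern, so their closeness to DMSO is a description.

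Most measured osteoblast regulators fell. Of 27 listed osteoblast transcription factors, 20 passed the detection filter, and 14 of them fell while 4 rose (Osr2, Atf4, Sox4 and Dlx6). Their median difference was -0.54, against 0.04 over all genes. With median scaling 14 fell and 1 rose. Sp7 (osterix), which is required for osteoblast formation, was at 8.51, 8.35, 8.43 and 8.55 at 6 h, against 10.72, 10.51, 10.67 and 10.43 at 2 h and a DMSO mean of 12.69. It fell 4.36-fold between the times (adjusted p = 2.44e-10), and its other probe gave -2.71. Zfp521, a zinc finger protein that binds Runx2, fell by 1.24, and Cbfb, a partner subunit of the Runx factors, fell by 0.85. Alx4, a craniofacial homeobox factor, fell by 1.33. The list includes Dlx5, which passed as lower while undetected on all 8 SAHA arrays. Runx2 was not measured, because no probe on the array carries it as its 1 gene symbol.

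Of 35 listed homeobox patterning genes, 12 passed the filter and 11 fell, with a median difference of -0.60 (-0.40 with undetected genes at their bounds). Beside Prrx1, Six5 (-1.23 ± 0.06), Six2 (-1.15 ± 0.08) and Hoxa5 (-0.77 ± 0.09) fell. Six2, a factor of skeletal and kidney progenitors, was at 8.56, 8.69, 8.47 and 8.70 at 6 h and 9.63, 9.71, 9.74 and 9.93 at 2 h, and its 2 h mean lay beside a DMSO mean of 9.78. The 1 gene that rose was Meis1, by 0.25 (-0.00465 with no normalization between arrays).

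Bone matrix genes mostly fell or did not pass. Among 21 measured osteoblast matrix and mineral genes (of 27 listed), 11 fell and 2 rose (Smpd3 and Slc20a2). Alpl, the alkaline phosphatase of mineralisation, was at 8.09, 7.85, 8.21 and 7.99 at 6 h, against 8.87, 8.95, 8.96 and 9.31 at 2 h, 1.99-fold lower (adjusted p = 1.99e-06). Tnn, which encodes tenascin N, fell by 1.01, while Smpd3, a sphingomyelinase needed for bone mineralisation, rose by 0.98. For 4 other bone genes the difference did not pass. Col1a1, the main chain of type I collagen, was at 15.28, 15.30, 15.29 and 15.26 at 6 h and 15.14, 15.33, 15.16 and 15.25 at 2 h, with overlapping groups and a difference of 0.06 ± 0.07 (adjusted p = 0.475). Its levels, like those of H1f2 below, lay at the top of the intensity range. In the authors' normalized values the difference was 0.24, with an adjusted p of 0.059 without and 0.0468 with the replicate number as a block. Bglap, which encodes osteocalcin, was at 11.84, 11.43, 11.57 and 11.76 at 6 h and 11.83, 11.89, 11.73 and 11.99 at 2 h, a difference of -0.21 ± 0.10 (adjusted p = 0.100, and 0.0415 without array 9 of the 6 h group). Ibsp, bone sialoprotein, differed by -0.11 ± 0.14, and Phex, a mineralisation protease detected on 2 of 4 arrays at 6 h, by -0.32 ± 0.22.

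Collagen genes and the enzymes that modify collagen were mostly lower. Of 25 measured genes for collagens and their processing, 15 fell and 4 rose (Col5a3, P4ha2, P4ha1 and Plod1). P4ha3, a prolyl hydroxylase subunit, fell by 1.86, and Lox, the cross-linking lysyl oxidase, was at 13.44, 13.29, 13.37 and 13.45 at 6 h and 14.56, 14.35, 14.30 and 14.16 at 2 h, 1.94-fold lower. Loxl4 fell by 0.56, whereas Col5a3 rose by 0.42. Of 9 measured small leucine-rich proteoglycans 6 fell and none rose, led by Ogn (osteoglycin, -0.84 ± 0.07), Omd (osteomodulin, -1.40 ± 0.13), Lum (lumican, -0.54 ± 0.10) and Aspn (asporin, -1.05 ± 0.20). Among 16 measured matrix proteases and inhibitors, 10 fell and 4 rose (Adam17, Adamts9, Adam9 and Reck). Adamts4, an aggrecan-cleaving protease, fell by 1.51, Mmp14, the membrane collagenase, fell by 1.10, and Timp1, a metalloprotease inhibitor, fell by 1.05. Adam17, the sheddase for TNF and EGF ligands, rose by 0.83.

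Genes of the FGF, PDGF and EGF, the TGF-beta and the BMP lists were mostly lower at 6 h. In the IGF signalling list 43.8% of 16 measured genes fell and 18.75% rose. Among 11 measured feedback inhibitors of ERK signalling 45.5% fell and 9.09% rose. The hedgehog signalling list was divided, with 40% of 5 measured genes falling and 40% rising. Of 18 measured FGF, PDGF and EGF family ligands and receptors, 14 fell and 1 rose (Fgfrl1), with a median of -0.55. Fgf7, an FGF ligand of mesenchymal cells, was at 8.29, 8.49, 8.31 and 8.18 at 6 h, against 10.41, 10.22, 10.43 and 10.23 at 2 h, 4.01-fold lower, beneath a DMSO mean of 12.67. Pdgfc, a PDGF ligand, was at 8.49, 8.26, 8.37 and 8.53 at 6 h and 10.56, 10.29, 10.48 and 10.52 at 2 h, 4.15-fold lower. Of the PDGF receptor genes, Pdgfra fell by 1.24 and Pdgfrb fell by 1.25. Their DMSO means were 10.99 and 10.21.

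In the TGF-beta list 12 of 18 measured genes fell and 1 rose (Ccn2), with a median of -0.62. Eng is among those that fell, though undetected on all 8 SAHA arrays. The ligand gene Tgfb3 was at 8.93, 8.69, 9.09 and 8.98 at 6 h, against 10.71, 10.91, 10.74 and 10.77 at 2 h, 3.63-fold lower, and its 2 h mean of 10.78 was above its DMSO mean of 10.46. The receptor gene Tgfbr2 was at 12.22, 12.27, 12.23 and 12.25 at 6 h and 13.46, 13.37, 13.48 and 13.21 at 2 h, 2.20-fold lower. Inhba, the activin A subunit gene, fell by 0.74, and Tgfbi, a secreted target of the pathway, fell by 0.73. Of 17 measured BMP pathway genes 11 fell and none rose. The 2 with the smallest p encode secreted antagonists, Grem1 (gremlin) and Fst (follistatin). Grem1 was at 8.35, 8.31, 8.36 and 8.43 at 6 h, against 10.66, 10.47, 10.60 and 10.70 at 2 h, 4.74-fold lower. Fst fell by 1.60, and Id2, a BMP target that inhibits bHLH factors, fell by 0.75. Id1 fell by 0.28 to 8.88, still above its DMSO mean of 6.53.

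Notch pathway genes were mostly higher. Of 11 measured genes 7 rose and 2 fell (Maml2 and Maml1), with a median of 0.31. With median scaling 5 Notch signalling genes rose and 3 fell. The target gene Hey1 was at 7.65, 7.90, 7.57 and 7.68 at 6 h, against 6.32, 6.35, 6.36 and 6.24 at 2 h, 2.61-fold higher, with 3 of 4 arrays at 2 h detecting it. Hes6 rose by 0.73 and the receptor gene Notch3 by 0.67, while Maml2, a coactivator, fell by 1.48. Of 29 measured genes of Wnt signalling 9 rose and 9 fell, against 3 and 9 with median scaling and with no normalization between arrays. The ligands Wnt10b (-1.65 ± 0.13) and Wnt6 (-1.11 ± 0.12) fell with Wnt10a, and so did the antagonist gene Nkd2 (-1.21 ± 0.09), which 1 of 4 arrays detected at 6 h.

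Of 11 measured chemokines and cytokines 3 rose (Il11, Tslp and Cxcl1, of which Il11 was undetected on all 8 SAHA arrays) and 2 fell (Csf1 and Tnfrsf11b), against 2 and 2 with median scaling. Cxcl1 was not called without array 9, 10 or 12 of the 6 h group or 5 or 7 of the 2 h group, nor Tslp without array 10 or 12 of the 6 h group or 5 or 7 of the 2 h group. Csf1, the growth factor that osteoclast precursors need, was at 8.32, 8.21, 8.50 and 8.42 at 6 h, against 10.45, 10.53, 10.49 and 10.54 at 2 h, 4.41-fold lower. Tnfrsf11b, which encodes osteoprotegerin, the decoy receptor for RANKL, was at 8.68, 8.56, 8.54 and 8.54 at 6 h, against 10.66, 10.16, 10.32 and 10.10 at 2 h, 3.32-fold lower. Its DMSO mean was 12.10. Vcam1, an adhesion molecule induced by NF-kB, was at 9.91, 9.66, 9.44 and 9.80 at 6 h and 11.76, 11.58, 11.68 and 11.73 at 2 h, 3.97-fold lower, although its other probe gave -0.24. Among 15 measured integrins, cadherins and related adhesion genes 8 fell and 3 rose (Alcam, Ncam1 and Mcam), against 10 and 1 with median scaling of the integrins and cadherins. Alcam, an immunoglobulin-family adhesion molecule, was at 7.69, 7.80, 7.75 and 7.78 at 6 h, against 5.69, 6.02, 5.80 and 5.46 at 2 h, where 1 of 4 arrays detected it, so no fold is given (adjusted p = 2.13e-09). Of 15 measured nuclear hormone receptors 8 fell and 3 rose (Vdr, Esrra and Nr2c1). Esr1, the oestrogen receptor, fell by 1.53 to a level that 1 of 4 arrays at 6 h detected, and Vdr, the vitamin D receptor, rose by 0.57.

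**Figure D3:**
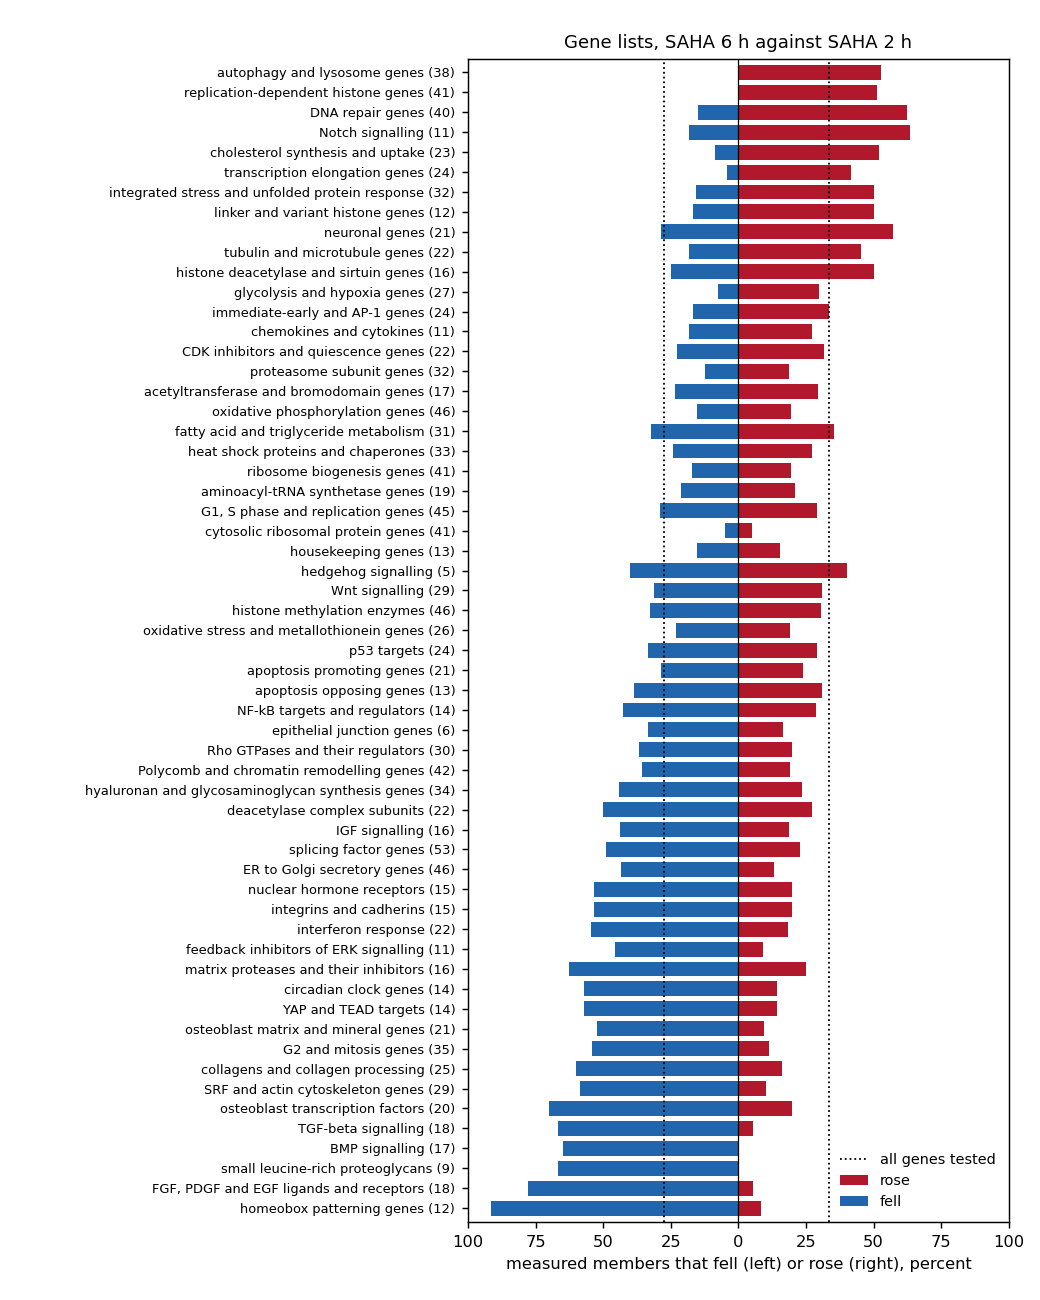
Share of the measured members of 58 gene lists that fell (blue, left) or rose (red, right) at an adjusted p under 0.05, as a percent of the members in brackets. Dotted lines mark the shares over all 9153 genes, 27.5% that fell and 33.4% that rose. Autophagy and lysosome genes stand at the top, with no member that fell (1 with median scaling), and homeobox patterning genes at the bottom, with 11 of 12 that fell.

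Many histone genes were higher at 6 h. Of 41 measured replication-dependent histone genes 21 rose and none fell, with a median of 0.24. With median scaling 6 rose and none fell, and with no normalization between arrays 2 rose and none fell. H2ac6, an H2A gene, was at 7.91, 8.48, 8.45 and 8.37 at 6 h, against 6.75, 6.83, 6.80 and 6.30 at 2 h, 3.10-fold higher, and its DMSO mean was 5.01. H2bc21, an H2B gene, was at 10.24, 10.52, 10.18 and 10.31 at 6 h, against 8.91, 8.91, 8.77 and 8.61 at 2 h, 2.85-fold higher. Its other probe gave 0.06. H3c10 rose by 0.64 and H3c14 by 0.67. Many of these genes are near-identical copies, so a probe may also bind transcripts of its neighbours, and single-gene values are uncertain. Among 12 measured linker and variant histone genes 6 rose and 2 fell (Cenpa and H2az1), against 3 and 3 with median scaling. H1f10, a linker histone gene, was at 13.34, 13.74, 13.68 and 13.46 at 6 h and 12.57, 12.67, 12.50 and 12.50 at 2 h, 1.99-fold higher, and H2aw, an H2A variant gene detected on 2 of 4 arrays at 2 h, rose by 1.59. H1f2, at the top of the intensity range, differed by 0.16 ± 0.08 (adjusted p = 0.115). In the authors' normalized values the H1f2 difference was 0.30 and passed, with an adjusted p of 0.000760 without and 0.000693 with the replicate number as a block. Cenpa, the centromeric H3 variant, fell with the mitotic genes.

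The promoter of H2ac6 is shown as an example of a TATA box, which is common in histone promoters. RefSeq promoters (250 bases before to 50 after the start, GRCm38.p6) were found for 37 of the 41 genes, and TATAAA on either strand occurred in 62.2% of them, against 6.96% of the 7475 promoters found for all genes tested and 14.2% of all 27025 promoters in the table. CCAAT occurred in 81.1% of the histone promoters, against 39.4% for all genes tested and 37.9% of the table. The window of H2ac6 is chr13:23683910-23684209, on the minus strand, with the TATAAA match in capitals.
H2ac6: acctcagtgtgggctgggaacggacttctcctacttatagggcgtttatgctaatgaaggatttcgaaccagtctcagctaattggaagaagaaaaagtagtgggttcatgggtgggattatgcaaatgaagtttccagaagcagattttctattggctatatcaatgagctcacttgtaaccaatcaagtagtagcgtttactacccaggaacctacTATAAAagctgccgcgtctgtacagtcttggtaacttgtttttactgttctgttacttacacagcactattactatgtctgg

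Deacetylase genes themselves did not move as one. Of 16 measured genes for histone deacetylases and sirtuins 8 rose and 4 fell (Hdac7, Hdac8, Hdac5 and Sirt5). The list median was 0.21, and -0.05 with no normalization between arrays. With median scaling 3 rose and 4 fell. Hdac7, a class IIa deacetylase, was at 7.28, 7.35, 7.26 and 7.34 at 6 h, against 9.14, 9.12, 8.88 and 9.002 at 2 h, 3.31-fold lower. Hdac11 was at 8.15, 8.18, 8.07 and 8.09 at 6 h, against 6.79, 6.87, 6.98 and 7.08 at 2 h, 2.28-fold higher. Hdac3, the catalytic subunit of the NCoR complex, rose by 0.40, and Sirt1, an NAD-dependent deacetylase that SAHA does not target, rose by 0.46 to 9.08, below its DMSO mean of 9.88. Neither passed with median scaling (Hdac3 0.25, adjusted p 0.0943, and Sirt1 0.31, adjusted p 0.0917) or with no normalization between arrays (Hdac3 0.13, 0.630, and Sirt1 0.19, 0.450). Of 22 measured subunits of deacetylase complexes 11 fell and 6 rose, against 10 and 2 of the deacetylase complex subunits with median scaling. The NuRD subunits Mta3 (-1.33 ± 0.07) and Mbd3 (-1.42 ± 0.10) fell, and Sap130 of the Sin3 complex rose by 0.66. Of 3 H4 lysine 20 methyltransferase genes, only Kmt5c passed (0.29 ± 0.06), and its call ended with median scaling (0.15, adjusted p 0.302) and with no normalization between arrays (0.035, adjusted p 0.908). Kmt5a differed by -0.09 ± 0.08 and Kmt5b by -0.17 ± 0.08 (adjusted p = 0.0820). Without array 8 of the 2 h group the Kmt5b difference was -0.23, with an adjusted p of 0.0280, and without array 11 of the 6 h group it was -0.22, with 0.0440. Among 46 measured histone methylation enzymes 14 rose and 15 fell (5 and 14 with median scaling), with falls in Carm1 (-1.16 ± 0.08), Setd1b (-1.24 ± 0.09) and Prmt1 (-0.90 ± 0.07). A gene undetected on all 8 SAHA arrays is among the 14 that rose. The shares of that list, 30.4% and 32.6%, lay near the 33.4% and 27.5% of all genes. Smyd3 rose by 1.62, but its other probe gave -0.13.

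Of 24 measured genes for transcription elongation 10 rose and 1 fell, against 6 and 1 with median scaling. The shares were 41.7% and 4.17%, beside 33.4% and 27.5% of all genes. Hexim1, an inhibitor of the elongation kinase P-TEFb, was at 10.57, 10.44, 10.44 and 10.46 at 6 h and 9.60, 9.53, 9.61 and 9.57 at 2 h, 1.87-fold higher. Mllt3, of the super elongation complex, rose by 0.96, and the PAF complex genes Ctr9 and Paf1 rose by 0.64 and 0.64. The 1 that fell was Larp7, which binds the inhibitory 7SK RNA and was at least 1.26-fold lower, with no 6 h array detecting it. Splicing factor genes leaned down, with 26 of 53 falling and 12 rising (27 and 2 with median scaling). U2af2, which recognises the polypyrimidine tract, fell by 1.20, and Clk2, a kinase of SR proteins, rose by 0.73.

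Many genes of cell division were lower at 6 h. Of 35 measured G2 and mitosis genes 19 fell and 4 rose (Ccnf, Espl1, Ttk and Pttg1), with a median of -0.25. Cdc20, the activator of the anaphase-promoting complex, was at 10.30, 10.34, 10.37 and 10.34 at 6 h, against 11.69, 11.56, 11.74 and 11.74 at 2 h, 2.54-fold lower, beneath a DMSO mean of 12.60. Cenpa was at 13.15, 13.31, 13.20 and 13.04 at 6 h, against 14.62, 14.59, 14.56 and 14.40 at 2 h, 2.59-fold lower. The rise of Pttg1 was not called without array 10 or 11 of the 6 h group, or 7 or 8 of the 2 h group. Foxm1, the transcription factor of G2 genes, fell by 0.89, and Anln, the cytokinesis scaffold anillin, fell by 0.83. In the list of genes for G1, S phase and replication 13 of 45 genes rose and 13 fell. With median scaling 4 of the G1, S phase and replication genes rose and 12 fell, and with no normalization between arrays none rose and 12 fell. Ccnd1, cyclin D1, was at 12.30, 12.52, 12.56 and 12.49 at 6 h, against 13.98, 13.98, 13.99 and 13.97 at 2 h, 2.86-fold lower (adjusted p = 5.99e-10). Tk1, thymidine kinase, was at 9.88, 9.71, 9.71 and 9.60 at 6 h and 11.43, 11.30, 11.36 and 11.38 at 2 h, 3.12-fold lower, and Rrm1, a ribonucleotide reductase subunit gene, fell by 0.80. Cdkn1a, the CDK inhibitor p21, fell by 0.28. Myc was undetected on all 8 SAHA arrays, against a DMSO mean of 6.71.

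Promoters of G2 and mitosis genes often carry the cell cycle homology region, to which repressor complexes bind in resting cells, and those of Cdc20 and Cenpa are shown as examples. The letters TTTGAA, on either strand, were found in 79.3% of 29 promoters available for the list, against 11.7% for all genes tested and 18.1% of the table. Split by call, 13 of 16 promoters of genes that fell held the letters, as did 3 of 4 of those that rose and 7 of 9 of those that did not pass. CCAAT was found in 72.4% of the 29. The windows are chr4:118437294-118437593 on the minus strand for Cdc20 and chr5:30666636-30666935 on the plus strand for Cenpa, with TTTGAA in capitals. A match describes letters in a window and does not show a working site, and none of the 7 motifs counted contains another.
Cdc20: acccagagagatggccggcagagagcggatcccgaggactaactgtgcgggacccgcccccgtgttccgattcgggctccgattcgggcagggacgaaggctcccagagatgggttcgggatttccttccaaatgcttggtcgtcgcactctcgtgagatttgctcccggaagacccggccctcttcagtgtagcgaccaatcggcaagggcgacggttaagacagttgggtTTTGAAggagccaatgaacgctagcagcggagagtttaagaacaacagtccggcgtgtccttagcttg
Cenpa: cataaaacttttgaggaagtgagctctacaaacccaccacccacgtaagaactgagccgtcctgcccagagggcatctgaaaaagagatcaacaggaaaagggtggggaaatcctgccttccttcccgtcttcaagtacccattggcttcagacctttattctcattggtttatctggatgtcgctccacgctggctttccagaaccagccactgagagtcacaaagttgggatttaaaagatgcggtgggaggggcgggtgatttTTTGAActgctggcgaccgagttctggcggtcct

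DNA repair genes were more often higher than lower at 6 h. Of 40 measured genes 25 rose and 6 fell, with a median of 0.30. With median scaling 11 of the DNA repair genes rose and 6 fell, and with no normalization between arrays 4 rose and 6 fell. Ddb2, a damage sensor of nucleotide excision repair, was at 10.16, 10.18, 9.91 and 10.03 at 6 h, against 8.84, 8.81, 8.81 and 8.69 at 2 h, 2.43-fold higher. Xrcc6, which encodes Ku70, was at 13.43, 13.36, 13.33 and 13.34 at 6 h and 12.73, 12.69, 12.61 and 12.68 at 2 h, 1.61-fold higher. The 2 genes with the smallest p in the list both fell, namely Lig3, a DNA ligase (-1.04 ± 0.06), and Ercc1, a repair endonuclease subunit (-1.09 ± 0.07). Genes that promote apoptosis were divided, 5 rising (Casp6, Diablo, Aifm1, Casp9 and Bad) and 6 falling of 21 (3 and 6 of the apoptosis promoting genes with median scaling). Bcl2l11, the BH3-only protein Bim, was at 10.22, 10.07, 10.02 and 10.15 at 6 h and 10.58, 10.68, 10.55 and 10.47 at 2 h, so it fell by 0.46 while staying above its DMSO mean of 8.17.

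**Figure D4:**
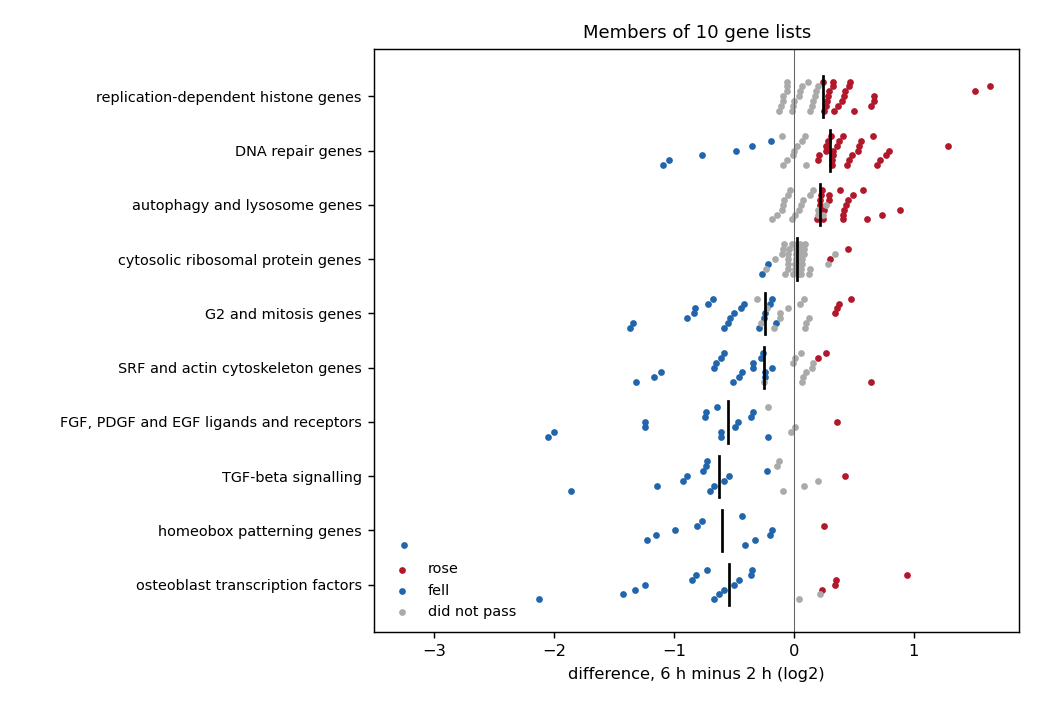
Difference, 6 h minus 2 h on the log2 scale, of each measured member of 10 gene lists, with points spread vertically only to keep them apart. Red members rose, blue members fell and grey members did not pass. Black bars are list medians, from -0.62 for TGF-beta signalling to 0.30 for DNA repair. Ribosomal protein genes stay close to 0, and no histone or lysosome gene is blue with these quantile-normalized values, where median scaling gave 1 fall among lysosome genes.

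Many lysosome and autophagy genes were slightly higher at 6 h. Of 38 measured genes 20 rose and none fell, with a median of 0.22. The median was -0.03 with no normalization between arrays, where the median of all genes was -0.20. With median scaling 5 of the autophagy and lysosome genes rose and 1 fell. Neu1, a lysosomal sialidase, was at 12.33, 12.47, 12.43 and 12.32 at 6 h, against 11.59, 11.63, 11.45 and 11.35 at 2 h, 1.84-fold higher. Map1lc3b, the autophagosome protein LC3B, was at 11.64, 11.68, 11.82 and 11.82 at 6 h and 10.88, 10.76, 11.15 and 11.24 at 2 h, 1.66-fold higher. Atg12, a ubiquitin-like conjugation protein, rose by 0.57, and Atp6v0d1, a subunit of the lysosomal proton pump, by 0.43. Mcoln1, the lysosomal calcium channel mucolipin, named for its promoter after the values were seen, was at 8.42, 8.22, 8.28 and 8.32 at 6 h and 7.86, 7.95, 7.80 and 8.01 at 2 h, and rose by 0.41.

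Promoters of lysosomal genes are known for E-box motifs to which the factor TFEB binds. CACGTG was found in 34.4% of 32 promoters available for the list, against 10.7% for all genes tested and 7.24% of the table. It was present in 7 of 16 promoters of genes that rose and in 4 of 16 of those that did not pass. The Atp6v0d1 window, chr8:105566015-105566314 on the minus strand, holds 1 match and the Mcoln1 window, chr8:3500269-3500568 on the plus strand, holds 2, shown in capitals.
Atp6v0d1: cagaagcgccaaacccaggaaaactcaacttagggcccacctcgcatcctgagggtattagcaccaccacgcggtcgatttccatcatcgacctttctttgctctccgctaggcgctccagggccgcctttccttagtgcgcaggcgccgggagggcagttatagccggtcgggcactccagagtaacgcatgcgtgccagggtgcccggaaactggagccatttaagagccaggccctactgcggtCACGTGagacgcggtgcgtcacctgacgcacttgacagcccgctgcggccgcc
Mcoln1: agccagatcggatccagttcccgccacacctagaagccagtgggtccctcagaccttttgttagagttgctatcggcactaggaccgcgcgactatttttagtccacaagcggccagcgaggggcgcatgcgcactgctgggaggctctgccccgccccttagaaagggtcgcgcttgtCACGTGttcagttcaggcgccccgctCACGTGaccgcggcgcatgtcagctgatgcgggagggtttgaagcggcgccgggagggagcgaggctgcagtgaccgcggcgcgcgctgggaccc

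Of 32 measured genes of the integrated stress and unfolded protein responses 16 rose and 5 fell (Atf5, Vldlr, Eif2ak3, Xbp1 and Phgdh). Their median difference was 0.17, and -0.06 with no normalization between arrays. With median scaling 10 rose and 5 fell, and with no normalization between arrays 4 rose and 7 fell. Of 33 measured heat shock proteins and chaperones 9 rose and 8 fell (4 and 8 with median scaling), and of 26 oxidative stress and metallothionein genes 5 rose (Gsta4, Mt1, Sod2, Prdx1 and Mt2) and 6 fell. Trib3, a pseudokinase induced by ATF4, was at 9.01, 8.91, 8.76 and 8.79 at 6 h, against 7.04, 7.18, 7.31 and 7.25 at 2 h and a DMSO mean of 10.75. It rose 3.18-fold, but its other probes gave only 0.36 to 0.49. Sdf2l1, an endoplasmic reticulum chaperone partner, rose by 0.87, and Ddit4, an inhibitor of mTOR signalling, by 0.61. Atf5, a stress-induced transcription factor gene, fell by 1.26. Of 24 measured immediate-early and AP-1 genes 8 rose and 4 fell (Egr3, Fosb, Fosl2 and Egr2), against 4 and 7 with median scaling. The share that rose, 33.3%, was near the 33.4% of all genes, and 16.7% fell, beside 27.5%. The fall of Egr2 was not called without array 9 or 11 of the 6 h group or 5, 6 or 7 of the 2 h group. Among these genes, Ccn1 was at 11.68, 11.98, 11.89 and 11.93 at 6 h and 10.87, 10.61, 10.71 and 10.74 at 2 h, 2.20-fold higher, and Egr1 rose by 0.66. Egr3 fell by 0.93, and Fos differed by -0.24 ± 0.19 (adjusted p = 0.295).

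In lipid metabolism, 12 of 23 measured genes of cholesterol synthesis and uptake rose and 2 fell (Fdps and Cyp51). Dhcr7, the last enzyme of cholesterol synthesis, was at 10.50, 10.31, 10.45 and 10.53 at 6 h and 9.62, 9.64, 9.76 and 9.85 at 2 h, 1.66-fold higher, and Hsd17b7, an enzyme of the same pathway, rose by 0.60, although its other probe gave -0.04. The list median was 0.17, and -0.08 with no normalization between arrays. With median scaling 4 of these genes rose and 5 fell. CCAAT was found in 89.5% of its 19 available promoters. Fatty acid and triglyceride genes were divided, 11 rising and 10 falling of 31, against 5 and 9 for fatty acid and triglyceride metabolism with median scaling. Dgat2, which makes triglycerides, was at 8.54, 8.24, 8.09 and 8.05 at 6 h and 6.40, 6.74, 6.50 and 6.52 at 2 h, 3.23-fold higher, whereas Acsl5, a fatty acyl-CoA synthetase, was at 11.23, 11.16, 11.27 and 11.10 at 6 h and 12.87, 12.63, 12.69 and 12.61 at 2 h, 2.85-fold lower.

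Genes of the contractile cytoskeleton were mostly lower. Of 29 measured SRF targets and actin cytoskeleton genes 17 fell and 3 rose (Acta1, Vcl and Fhl1), against 16 and 1 with median scaling. With no normalization between arrays the difference of Fhl1 was -0.057. Tagln2, transgelin 2, was at 12.04, 11.80, 11.88 and 11.95 at 6 h, against 13.10, 13.07, 13.10 and 13.08 at 2 h, 2.25-fold lower. The tropomyosin gene Tpm4 fell by 1.11, Actg2, a smooth muscle actin, fell by 0.66, and Tagln fell by 1.31. In the ER to Golgi secretory list 20 of 46 genes fell and 6 rose (21 and 1 of the ER to Golgi secretory genes with median scaling). Creb3l1, a transcription factor of secretory and collagen genes, was at 8.68, 8.45, 8.74 and 8.50 at 6 h and 10.09, 10.03, 10.02 and 10.12 at 2 h, 2.77-fold lower.

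Several neuronal genes besides Hap1 rose, though few of the list were measured. Of 64 listed genes 21 passed the filter, and 12 of these rose and 6 fell. Their median was 0.43, 0.29 with undetected genes at their bounds, and -0.08 over the 15 genes whose probe was detected on all 12 arrays. Map2, a dendritic microtubule protein, was at 10.07, 10.06, 10.03 and 10.03 at 6 h, against 7.94, 8.08, 8.13 and 8.25 at 2 h, 3.85-fold higher, with a 2 h mean near its DMSO mean of 8.02. Itpka, an inositol trisphosphate kinase of dendritic spines, was at 9.12, 8.94, 8.97 and 9.10 at 6 h, against 6.85, 6.83, 6.84 and 7.23 at 2 h, 4.28-fold higher. Syn1, the synaptic vesicle protein synapsin, rose 2.15-fold, to 11.54 at 6 h, beside a DMSO mean of 9.69.

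In several groups few genes passed. Of 41 measured cytosolic ribosomal protein genes 2 rose (Rpl22 and Rps25) and 2 fell (Rpl30 and Rps4x), with a median of 0.02. Of 46 oxidative phosphorylation genes 9 rose and 7 fell, against 0 and 9 with median scaling. Of 32 proteasome subunit genes 6 rose and 4 fell (Psmc5, Psmc3, Psmc2 and Psme1), against 0 and 5 with median scaling. Clock genes mostly fell, 8 of 14, with Bhlhe40 (-0.99 ± 0.08), Per2 (-0.79 ± 0.08) and Per1 (-0.60 ± 0.06) having the smallest p, and 2 rose (Arntl and Csnk1e). Pkp2, the desmosomal protein plakophilin 2, was at 10.87, 10.90, 10.91 and 10.87 at 6 h and 10.73, 10.996, 10.96 and 10.997 at 2 h, above a DMSO mean of 7.47. Its difference of -0.03 ± 0.07 did not pass (adjusted p = 0.725).

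Shares were also counted by gene length. Genes were split by RefSeq length into 4 groups of equal size. From the shortest group (up to 9.61 kb) to the longest (51.5 kb and over), 4.11, 3.81, 3.28 and 5.82% of genes fell at least 2-fold. In the same order 2.49, 2.27, 3.28 and 2.89% rose at least 2-fold. Promoter sequence was not compared between the genes that rose and fell at least 2-fold, because promoters were found for 78.4% and 75.3% of them.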

How the data were processed

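RNA from 12 samples was measured on Illumina mouse BeadChips, 4 arrays each for SAHA 6 h, SAHA 2 h and DMSO. The main values were the probe intensities the authors deposited without normalization, on a linear scale per the file headers. Each array's detection p-value per probe was deposited beside them, per the file headers. A further table of intensities normalized by the authors, method not given in the sources used here, served as an alternative. Scanner software is not given in the sources used here. The number of arrays limits the precision.

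Background was corrected with neqc in limma 3.58.1 (R 4.3.3), which applies normexp with parameters from the detection p-values, an offset of 16, quantile normalization and log2. Probes with detection p under 0.01 on at least 4 of 12 arrays were kept, and a gene was represented by its kept probe of highest mean. Probes were named from GEO's platform annotation: of 45281, 34885 carry 1 symbol, 18 several and 10378 none. A linear model with 3 group means over all 12 arrays and eBayes gave the contrast 6 h minus 2 h, with Benjamini-Hochberg adjustment over 16431 probes. For a gene undetected on a whole group, the bound sets the other group's mean against the higher, per array, of the lowest detected signal and the probe's own.

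Named genes were the 15 largest rises and falls that passed, were detected on all arrays of one SAHA group and did not overlap, the 4 members of each list described with the smallest p, a fixed list of 33 genes, and the 6 largest changes whose 6 h mean lay within 0.25 of DMSO. Members behind counts of 5 or fewer were named after their values were seen. The comparison, its members and the lists were chosen with earlier results of these data known. In simulated data of 16431 probes, 21 of 50 planted 1.25-fold, 37 of 50 1.5-fold, 49 of 50 2-fold and 50 of 50 4-fold changes were found, with 5 false calls. The simulation changed few probes and had independent noise without array or scaling effects, whereas 56.3% of probes changed here. Its rates therefore do not carry over to this comparison.

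Replicate numbers in the labels are carried only by the authors' normalized table. There, samples of the same number at 6 h and 2 h deviated together, with correlations across probes of 0.17 to 0.35 in all 4 pairs, against -0.38 to 0.22 between different numbers. The closest match carried the same number in 3 of 4 samples. Every same-number correlation was over 0.1, so a fit with the number as a block was made on that table. Alternatives covered background, normalization, offset, probe filters, the probe of a gene, the samples and variance model of the fit, the threshold, and leaving out each array.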

Additional observations from a re-analysis of the deposited data

Results flagged for a closer look

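In 23 of 466 groups of 4 arrays (233 named genes, at 6 h and at 2 h), 1 array lay far from the other three by Dixon's gap test. Chance gives about 1 in 20 groups, or 23.3 here. Array 8 of the 2 h group, which also detected the fewest probes, was the distant one in 9 of them. Values are log2 intensities.

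Array 9 of the 6 h group was the highest, at 10.57 for Hexim1 (nearest 10.46), 11.07 for Rrm1 (nearest 10.91) and 8.68 for Tnfrsf11b (nearest 8.56). Array 10 of the 6 h group was the lowest, at 7.17 for Lama5 (nearest 7.45) and 8.18 for Maml1 (nearest 8.38). Array 11 of the 6 h group was the highest, at 7.92 for Bst2 (nearest 7.40) and 9.27 for Loxl4 (nearest 9.01). Array 11 of the 6 h group was the lowest, at 15.27 for Tuba1b (nearest 15.39). Array 12 of the 6 h group was the highest, at 11.03 for Fosl2 (nearest 10.94).

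Array 5 of the 2 h group was the highest, at 12.21 for Panx3 (nearest 12.03). Array 5 of the 2 h group was the lowest, at 9.01 for Id1 (nearest 9.21) and 10.73 for Pkp2 (nearest 10.96). Array 7 of the 2 h group was the highest, at 8.09 for Six5 (nearest 7.99). Array 7 of the 2 h group was the lowest, at 11.41 for Rpl30 (nearest 11.51). Array 8 of the 2 h group was the highest, at 10.44 for Fgfrl1 (nearest 10.20), 7.23 for Itpka (nearest 6.85), 9.43 for Mcam (nearest 9.15) and 10.87 for Sap130 (nearest 10.67). Array 8 of the 2 h group was the lowest, at 8.94 for Adamts4 (nearest 9.29), 12.78 for Ccn2 (nearest 12.96), 8.69 for Ddb2 (nearest 8.81), 6.30 for H2ac6 (nearest 6.75) and 13.64 for Mmp14 (nearest 13.86).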

How the results depend on the processing

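With no normalization between arrays, 5852 probes and 3297 genes changed, 671 genes were higher, and 17 gene lists, against 26 of 58, had at least 50% of their measured members passing in one direction. With median scaling 1483 genes were higher. Fitted over genes alone, with fewer features tested, 5743 genes changed, against 5576 genes (9253 probes) in the main fit. At least 2-fold changes numbered 332 with no background correction and 320 in the authors' values, with and without the replicate block. Lists numbered 4 with no filter on detection and 12 at an adjusted p under 0.01. Leaving out 1 array gave 8568 to 9030 probes, 5183 to 5430 genes, 2826 to 2960 higher, 2357 to 2470 lower, 628 to 663 at least 2-fold and 19 to 24 lists. In the authors' values 5698 genes changed without the replicate block and 6011 with it. Among the named genes the block changed the call of Col1a1 and Pttg1 (adjusted p 0.0593 without and 0.0488 with it) and no other call.

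Of 223 named genes that were called, 66 lost the call in some other setting. The 9 that lost it when 1 array was left out were Cxcl1, Dlx6, Egr2, Mcam, Psme1, Pttg1, Rps25, Tslp and Tuba1b. Also lost were Adam9, Atg12, Bst2, Casp6, Ccnf, Ctr9, Ddit4, Diablo, Egr1, Esrra, H3c10, H3c14, Hsd17b7, Il11, Mt1, Notch3, Nr2c1, P4ha1, P4ha2, Paf1, Plod1, Prdx1, Psmc2, Sap130, Slc20a2, Sod2, Vdr and Xrcc6 with no normalization between arrays, Casp9, Fdps, Hdac8, Psmc2 and Sox4 with the mean of all kept probes of a gene, and Dlx6 and Rps4x in the authors' values. Reversed differences were Ackr4 at 1.08 with probes detected on all 12 arrays and with the SAHA arrays only, where another probe stands for the gene. Others were Fhl1 at -0.057 and Meis1 at -0.00465 with no normalization between arrays, and Tuba1b at 0.062 in the authors' values, with and without the block, and the cause was not tested. Of the 26 lists, 21 kept the sign of their median in all 24 settings, and 25 kept it relative to the median of all genes. Signal near background limits the rises that began undetected, which are known only as bounds.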

Other observations

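Interferon response genes were mostly lower at 6 h. Of 22 measured genes 12 fell and 4 rose (Stat2, Psmb9, Usp18 and Bst2), with a median difference of -0.28. Gbp3, an interferon-induced GTPase gene, was at 5.19, 5.20, 5.19 and 5.24 at 6 h and 6.88, 6.96, 6.89 and 7.03 at 2 h, with no 6 h array detecting it, so it was at least 1.79-fold lower (adjusted p = 4.12e-10). Gbp2, of the same family, fell by 1.17, while Stat2, a transcription factor of the response, rose by 0.81.

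Of 22 measured tubulin and microtubule genes 10 rose and 4 fell (Mapre1, Stmn1, Tubb6 and Tuba1b), with a median difference of 0.14. With median scaling 6 rose and 3 fell. The Tuba1b difference was 0.062 in the authors' normalized values, where it did not pass. Of 2295 tested probes with no gene symbol or several, 1093 changed at an adjusted p under 0.05, and these are not named. Of 3466 genes with several tested probes, all probes had the same call in 2254, and in 71 genes 1 probe rose while another fell.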
